A study of Homo sapiens with 197 samples.

Results

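Wells of IMR90 cells that received a phosphoinositide kinase or another lipid kinase were examined for the expression of a Nanostring probe panel, in which each value is the number of barcodes read for a probe in a lane, with no amplification. They were chosen by name, as the lanes whose kinase label begins with PIK3, PIK4, PI4K, PIP5K, DGK or ITPK or is CERK, with no use of the measured values. This gave 15 lanes, which are 7.61% of all lanes of the series and 8.20% of the kinase lanes compared. They were set against the wells of all other kinases, which are the other 91.8% of those lanes, and against 2 control wells.

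IMR90 is a strain of normal human lung fibroblasts. Each kinase well was infected with a retroviral vector that encodes 1 kinase carrying a myristoylation signal, which anchors a protein to membranes and is intended to activate it, and a Flag tag. RNA was taken 4 days after infection. The 2 controls are IMR90 wells that the labels give as infected with empty vector. Each kinase has 1 lane, so the replicates of a comparison are wells of different kinases, and p-values measure the spread between such wells. The panel holds no probe for the 15 genes of these wells and none that defines fibroblasts. The cell type was therefore not checked by a marker, and the level of each kinase not by a probe of its gene. A row named for the tag common to the constructs is described below.

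Phosphoinositides are membrane lipids whose inositol head group is phosphorylated at different positions. PI4-kinases and PIP5-kinases build phosphatidylinositol bisphosphate step by step, phospholipase C cleaves it into diacylglycerol and inositol trisphosphate, and class I PI3-kinases convert it to the trisphosphate lipid that recruits PDPK1 and AKT to the membrane. Diacylglycerol kinases and ceramide kinase phosphorylate other signalling lipids, and the inositol phosphate kinases act on the soluble head groups.

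The 15 wells comprised 4 PI3K wells, 3 PI4K wells, 4 PIP5K wells, 2 wells of kinases of other lipids and 2 wells of inositol phosphate kinases. Among the PI3K wells, PIK3CB and PIK3CG encode catalytic subunits, whereas PIK3R3 and PIK3R5 encode regulatory subunits, which have no kinase activity of their own. The PI4K wells were PIK4CA (PI4KA in current nomenclature), PIK4CB (PI4KB) and PI4K2B. Of the PIP5K wells, PIP5K1A and PIP5K1B encode type I enzymes that phosphorylate PI4P, PIP5K2A is now named PIP4K2A and uses PI5P, and PIP5K3 is now PIKFYVE, which makes the bisphosphate of endosomes. DGKG is a diacylglycerol kinase and CERK the ceramide kinase. ITPK1 and ITPKB phosphorylate soluble inositol phosphates, and so are lipid kinases by the name rule alone.

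Lane totals of the 15 wells ran from 29629 to 256521 counts with a median of 159350, against a median of 159648.5 in the other kinase wells. The PIP5K2A lane had the lowest total and the next had 122051. Counts were scaled so that the geometric mean of the housekeeping genes PGK1, TBP and TUBB2A was equal in all lanes, and these are called normalized counts. Because of its low total, 1 count in the PIP5K2A lane is worth 6.20 normalized counts. Background was taken for each lane as the mean + 2 SD of its negative-control probes, called here the negative-control level. Of 58 rows tested, 16 were above that level in all 15 wells. Of the 42 tissue-restricted genes, which are silent or weak in IMR90, 3 were above it in every lipid kinase well, 1 in 8 to 14 wells, 25 in 1 to 7 wells and 13 in none.

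As a check of infection, rows that could report the vector were read first. The row named MyrFlag, for the tag common to the kinase constructs, ranged from 522 normalized counts in ITPKB to 887 in PI4K2B, and the controls held 679 and 729. The lipid kinase wells therefore overlapped the controls, with 4 wells above both and 9 below both. Its log2 fold change over the controls was -0.06 (SE 0.15, adjusted p = 0.754 by the edgeR quasi-likelihood test).

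The row named ZBTB33, a gene for the methyl-DNA-binding protein Kaiso, behaved otherwise. It held 7538 normalized counts in PIK4CB, 7774 in DGKG and 8948 in PIP5K1A. PIK3R3 had 13072, PIK3CB 13464, PIP5K1B 19692, PI4K2B 21863, PIP5K2A 23582, ITPK1 24778, CERK 30470, PIP5K3 33166 and PIK3CG 40978. PIK3R5 had 56296, ITPKB 61832 and PIK4CA 95040, which ranked 3 among all kinase wells. The controls held 8.94 and 18.7, from 9 and 18 counts, both below their negative-control level. All 15 wells were thus above both controls, at a log2 fold change of 11.10 (SE 1.95, adjusted p = 2.76e-06 by edgeR). The other kinase wells ran from 150 to 114791 with a median of 22938, beside a median of 23582 in the lipid kinase wells. Even their lowest value exceeded both controls, so the rise was not particular to the lipid kinase wells. In RNA of whole wells, the share of cells that hold the RNA counted by this row and its amount per cell cannot be told apart. The rows carry the names deposited with the counts, and descriptions of genes follow these names. Whether ZBTB33, the row ZBTB38 described next, MyrFlag or any other row counts the RNA of its name or another target was not tested. ZBTB33 was the only row past an adjusted p of 0.05 in the comparison with the controls, which is 1 of 58 rows or 1.72%. An exact permutation test over the wells called no row, at an adjusted p of 0.396 for ZBTB33. A row that alone reaches the smallest possible p of that test, 0.00735, cannot pass the adjustment over 58 rows.

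A row named ZBTB38, for another protein of the same family, ran in parallel and was singled out after its values were seen. It ranged from 4190 normalized counts in DGKG to 60001 in PIK4CA, between 0.483 and 0.631 times the ZBTB33 row of the same well. In the log2 values of the 15 wells the rows had a Pearson r of 0.99 and a Spearman rho of 0.99, and r was also 0.99 over the other kinase wells. Both rows of a lane share its scaling factor. The controls held 1625 and 7188 of this row, within reach of the lowest lipid kinase wells. The MyrFlag row followed ZBTB33 far less closely (r = 0.15, rho = 0.09, 15 wells). The authors reported that the tag was detected for all kinases and absent in non-infected IMR90 and SW39 cells. In the counts used here, the control wells, labelled as infected with empty vector, held as much of the row named MyrFlag as the kinase wells. The row named ZBTB33 was below the negative-control level in both controls and at 150 normalized counts or more in every kinase well. The authors' statement is thus not set aside by the MyrFlag row, as the target of each row was not tested. Why the MyrFlag row did not separate kinase wells from controls was not tested. Below, ZBTB33 and ZBTB38 are left out where 15 rows mostly above background are used. They are kept where 17 such rows are used and in the Z-scores, and ZBTB38 is kept among the chromatin rows.

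**Figure D1:**
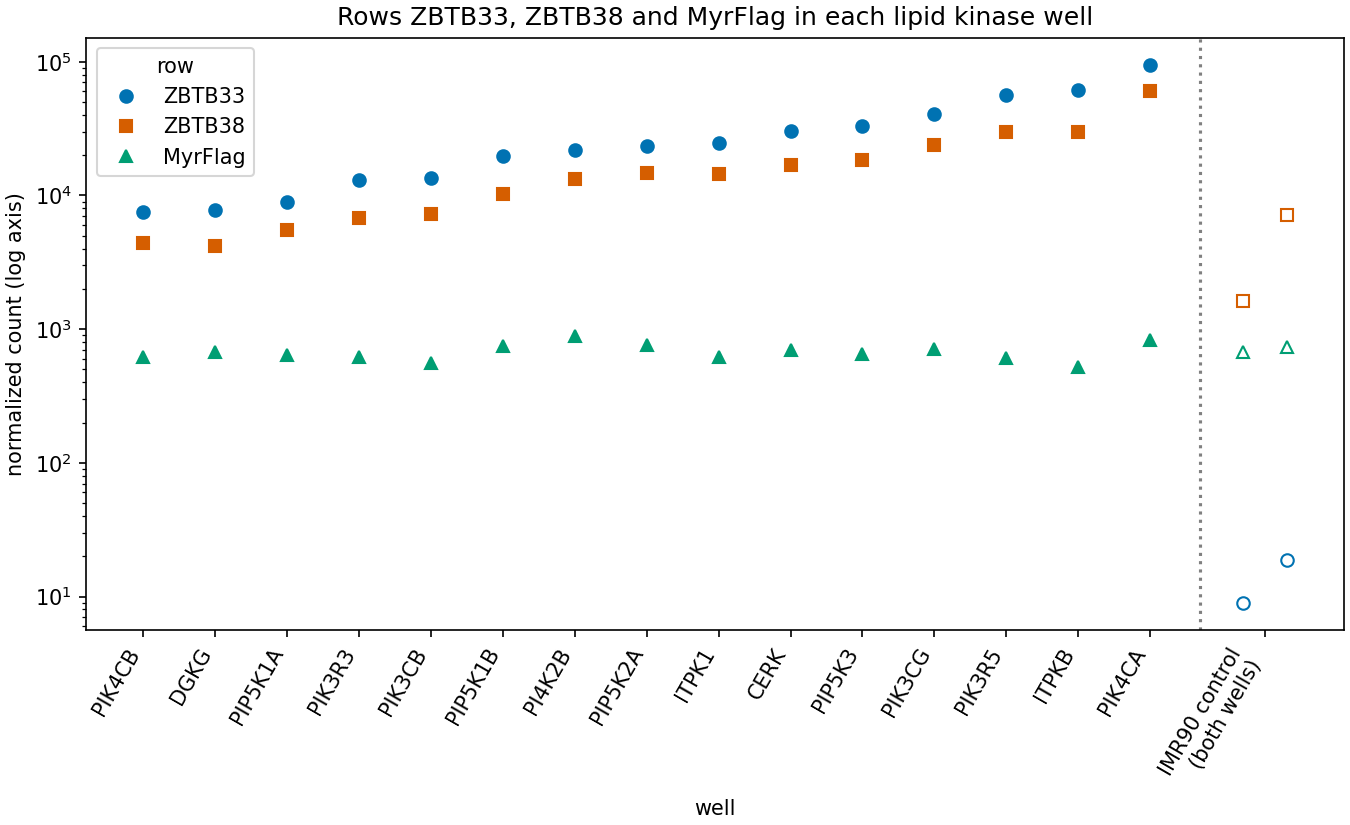
Normalized counts (log axis) of the rows ZBTB33, ZBTB38 and MyrFlag in each of the 15 lipid kinase wells, ordered by ZBTB33, and in the 2 control wells (open symbols). ZBTB33 and ZBTB38 rise together from PIK4CB to PIK4CA, whereas MyrFlag stays between 522 and 887 normalized counts.

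The question of the screen was whether an activated kinase switches on tissue-restricted genes. With the 15 lipid kinase wells taken as a group against the other kinase wells, 0 of 58 rows passed an adjusted p of 0.05 by the edgeR test, or 0%, and the smallest adjusted p was 0.699. At an unadjusted p under 0.05 there were 2 rows, both higher, where 2.9 are expected at that threshold. In a fit with blocks of 12 consecutive sample numbers as a covariate there were also 2, both lower, MAGEB6 and the testis tubulin TUBA3C. DESeq2, limma on the deposited table, a permutation test and the fit with blocks of sample numbers called 0 rows as well, and leaving out PIP5K2A left the count at 0.

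ALAS1, the first enzyme of heme synthesis, had the smallest p. Its normalized counts in the lipid kinase wells had a lowest value of 463 in PIK4CB, a median of 524 and a highest value of 682 in PI4K2B, against a median of 482 and a range from 332 to 772 in the other wells. In 13 of the 15 wells it was above the median of the others, but the ranges overlapped throughout. The log2 fold change was 0.13 (SE 0.06, unadjusted p = 0.0325), and it was 0.05 with blocks of sample numbers. PLA2R1, a receptor for secreted phospholipase A2, was at 467 in DGKG, had a median of 549 and reached 731 in PIP5K2A, against a median of 526 in the other wells. Its log2 fold change was 0.12 (SE 0.06, unadjusted p = 0.0391), and with blocks 0.07 (unadjusted p = 0.156).

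By their names the Tet rows stand for the TET genes, which encode enzymes that oxidize methylated cytosine. Whether these rows count that RNA was not tested. The Tet2 row lay between 654 in CERK and 865 in PI4K2B with a median of 751 against 703 in the other wells (log2 fold change 0.09, SE 0.05, and 0.04 with blocks). Tet1 lay between 273 in PIK3R5 and 489 in PI4K2B with a median of 379 against 348 (log2 fold change 0.14, SE 0.08, and 0.12 with blocks). MAGEB6, a cancer/testis antigen of the MAGE family, was the row with the lowest p among those below 0. Its normalized counts were 6.20 in PIP5K2A, 10.6 at the median and 21.1 in PI4K2B against a median of 13.97 in the other wells, with a log2 fold change of -0.29 (SE 0.15). With blocks its log2 fold change was -0.32 (unadjusted p = 0.0158, adjusted p = 0.860 by edgeR), the smallest p of that fit. MAGEB6 was above the negative-control level in 0 of the 15 wells. None of these 5 rows passed the adjustment, at an adjusted p of 0.699 each, and none was called in any alternative.

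**Figure D2:**
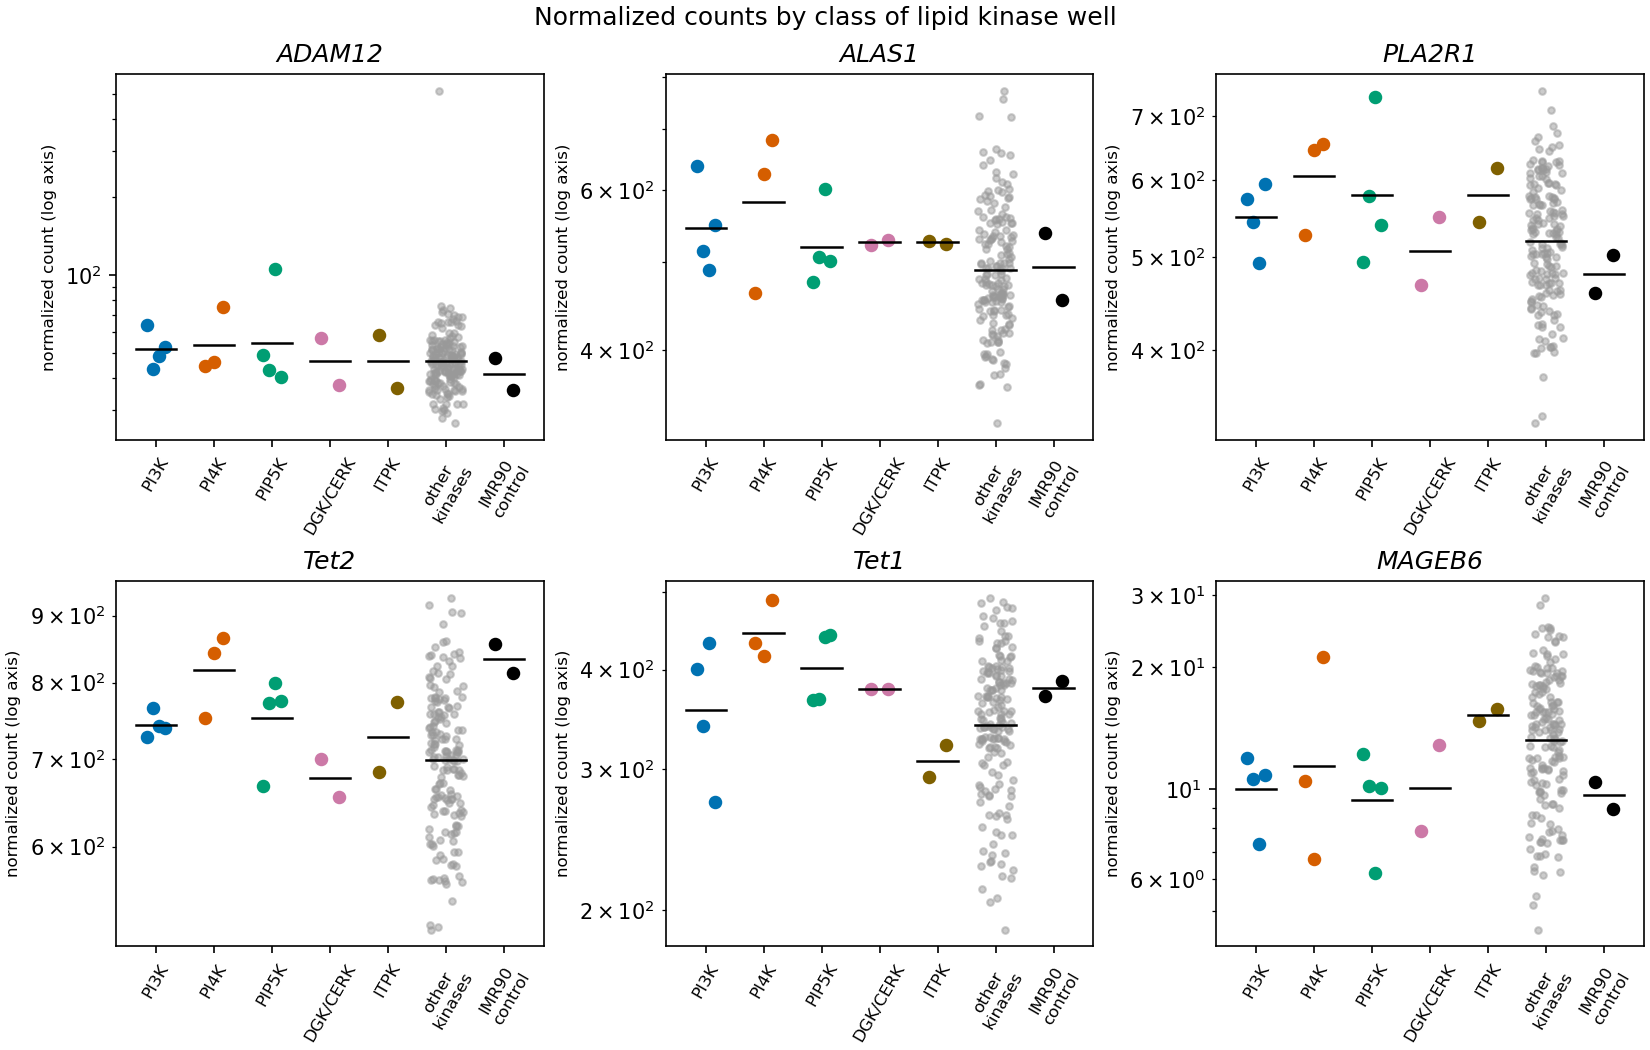
Normalized counts (log axes) of 6 rows in the lipid kinase wells by class, in the other kinase wells (grey) and in the 2 IMR90 controls (black), with 1 point per well and a bar at the geometric mean. The lipid kinase wells lie within the range of the other kinase wells for all 6 rows, and for ADAM12 1 other kinase well stands far above at 514.

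ADAM12, a metalloprotease of the cell surface, was above the negative-control level in all 15 wells. It was lowest in ITPKB at 36.7 normalized counts, had a median of 48.6 and was highest in PIP5K2A at 105.3, where it rests on 17 counts. The other wells had a median of 45.8 and reached 514, and the controls held 35.8 and 47.8. Its log2 fold change was 0.05 over the other kinase wells (SE 0.15, adjusted p = 0.989) and 0.31 over the controls (SE 0.41, adjusted p = 0.601). With blocks of sample numbers it was 0.00 over the other kinase wells and 0.73 over the controls (unadjusted p = 0.0626, adjusted p = 0.591). The edgeR values compare mean levels, to which the well at 514 (MAP3K7) adds among the other kinase wells. As a difference of mean log2 values, ADAM12 was 0.14 higher in the lipid kinase wells than in the other kinase wells.

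Rows with enough signal bound how large a shared response could be. Over the 15 rows whose median count over the wells exceeded the median negative-control level, called here mostly above background, and without ZBTB33 and ZBTB38, log2 fold changes against the other kinase wells lay between -0.09 (B2M) and 0.14 (Tet1), 12 of them above 0. Their 95% confidence intervals reached no lower than -0.35 for B2M and no higher than 0.33 for ADAM12, which is 0.787 and 1.26 times the level in the other wells. ATAD2, a bromodomain ATPase, was at -0.02 (SE 0.08), and UHRF1, which maintains DNA methylation, at 0.10 (SE 0.07). The housekeeping genes that set the scale ran over the 15 wells from 9010 to 11895 normalized counts for PGK1, 398 to 520 for TBP and 3869 to 4879 for TUBB2A. Their geometric mean is equal in all lanes by the scaling, so this spread does not show whether they were stable, which was not tested.

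**Figure D3:**
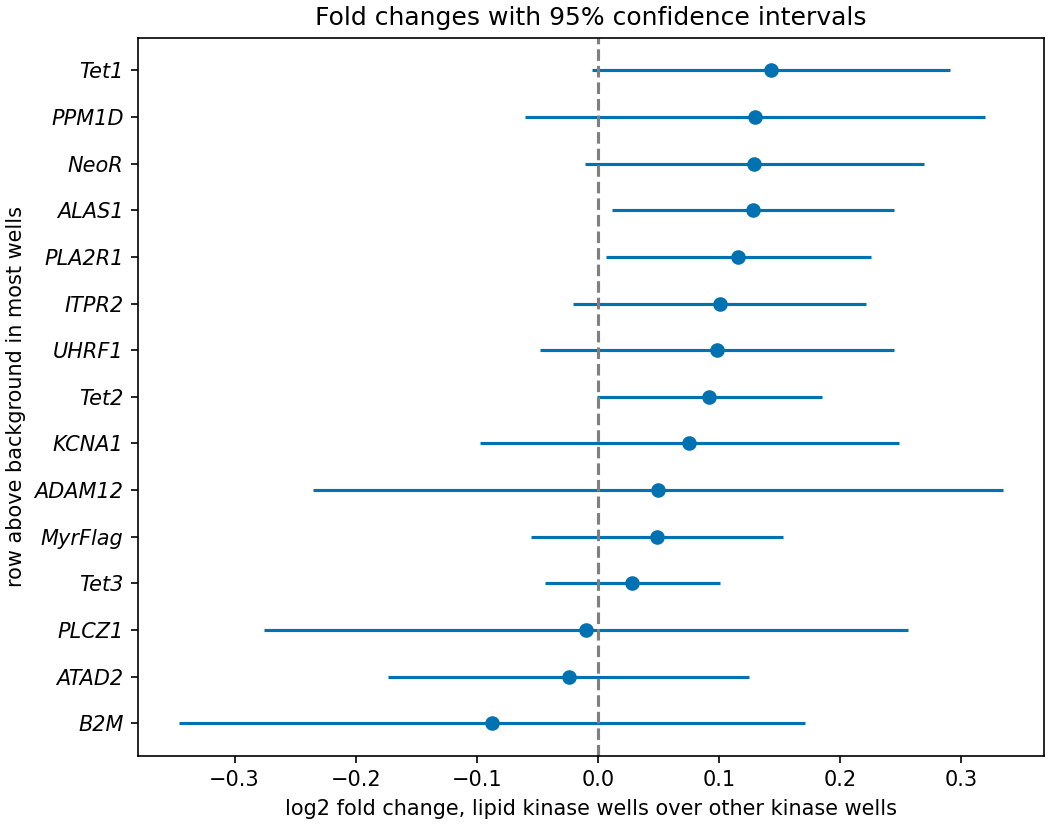
Log2 fold changes (points) of the 15 lipid kinase wells over the other kinase wells with 95% confidence intervals (lines), for the 15 rows mostly above background other than ZBTB33 and ZBTB38. All points lie between -0.09 and 0.14, and no interval reaches beyond -0.35 or 0.33.

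By gene group, 0 rows were called in either direction. Over all rows the median log2 fold change against the other wells was 0.09, and over the 42 tissue-restricted genes it was 0.05. The 5 MAGE genes had a median of 0.13 and the 7 other cancer/testis antigens one of 0.13. Germ cell RNA-binding and piRNA genes (8 rows) had a median of 0.03, germline chromatin and meiosis genes (6 rows) 0.04, and sperm structure and fertilization genes (7 rows) 0.01. Enzymes (6 rows) had a median of 0.05 and the chromatin rows (8 rows) 0.11, with all 8 of the latter, ZBTB38 among them, above 0.

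By their names, 3 rows of the panel belong to phosphoinositide signalling itself, and whether they count those RNAs was not tested. PLCZ1 is the phospholipase C of sperm that triggers calcium release in the egg. It ranged from 13.9 normalized counts in PIK4CB to 55.9 in ITPKB with a median of 27.1, beside 27.2 in the other wells, and was above the negative-control level in 12 of 15 wells (log2 fold change -0.01, SE 0.14, adjusted p = 0.991). TPTE, a gene expressed in testis, held 4.58 in PIK3R3 to 17.9 in PIK4CA and was above that level in 1 well (log2 fold change -0.06, SE 0.21, adjusted p = 0.989). ITPR2, a receptor that releases calcium upon binding inositol trisphosphate and which was picked out after its values were seen, held 565 in PIK4CB to 911 in PIP5K2A (log2 fold change 0.10, SE 0.06, adjusted p = 0.769). None of the 3 rows passed the test.

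The comparison with the controls rests on 2 wells on their side. Beside ZBTB33, 4 rows had an unadjusted p under 0.05, all higher in the lipid kinase wells and none past the adjustment (adjusted p = 0.310 each by edgeR). They were the cancer/testis antigen CTAG1B (NY-ESO-1), at a log2 fold change of 1.76 (SE 0.81), the germ cell RNA-binding protein DAZL at 1.31 (SE 0.64), the dipeptidase DPEP3 at 1.22 (SE 0.61) and the transcription factor RFX4 at 1.09 (SE 0.51). DAZL was higher than in both controls in 15 wells, DPEP3 in 14, RFX4 in 13 and CTAG1B in 12. Medians in the lipid kinase wells were 7.85 normalized counts for DAZL, 6.33 for DPEP3, 12.8 for RFX4 and 11.3 for CTAG1B. In the other kinase wells they were 8.44, 5.86, 10.9 and 8.54, also above both controls, so the excess was not particular to the lipid kinase wells. Yet DPEP3 was above the negative-control level in 0 of the 15 wells, DAZL in 1, and CTAG1B and RFX4 in 2 each.

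The 2 controls lie in 2 of the blocks of sample numbers, and the values depended on whether the blocks were fitted. With blocks none of the 4 rows had an unadjusted p under 0.05, at a log2 fold change of 1.15 for CTAG1B (unadjusted p = 0.138), 0.92 for DAZL (0.103), 0.63 for DPEP3 (0.286) and 0.52 for RFX4 (0.216). The rows under 0.05 beside ZBTB33 were then both lower than in the controls, Tet2 at -0.29 (unadjusted p = 0.0112, adjusted p = 0.324) and ZBTB4, a methyl-DNA-binding gene, at -1.22 (unadjusted p = 0.0314, adjusted p = 0.591). Without blocks Tet2 was at -0.15 (SE 0.13, adjusted p = 0.478). ATAD2 was at -0.23 without blocks (SE 0.20, adjusted p = 0.487) and at -0.01 with them.

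Without blocks, the higher values over the controls were shared by the weak rows as a whole. All 38 tissue-restricted rows that were mostly at background had a positive log2 fold change over the controls, and the median over the 42 tissue-restricted genes was 0.62. With blocks of sample numbers 29 of the 38 were positive and 9 negative, and the median over the 42 genes was 0.27. The mean log2 of the 38 weak rows was 3.44 in the lipid kinase wells (range 2.81 to 4.04), 3.38 in the other kinase wells and 2.84 in the controls (2.69 and 2.99). The negative-control probes did not move with it, at a mean of 3.08, 3.15 and 3.06 in the same order. By gene list, the median log2 fold change over the controls without blocks was 0.89 for the MAGE genes, 0.85 for germ cell RNA-binding and piRNA genes, 0.82 for other cancer/testis antigens, 0.64 for sperm genes, 0.51 for germline chromatin and meiosis genes, 0.50 for enzymes and 0.00 for the chromatin rows. All 7 lists had 0 rows called against the controls.

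The level of the weak rows followed the ZBTB33 row from well to well. It was lowest in PIK4CB, at 0.57 below the mean of the other kinase wells on the log2 scale (log2 difference -0.57), then in DGKG (-0.50) and PIP5K1A (-0.31), the 3 wells with the lowest ZBTB33. It was highest in PIK4CA (0.66) and ITPKB (0.51), the 2 wells with the highest. Over the 15 wells Pearson r between both on the log2 scale was 0.88 (rho 0.85), and 0.81 without the 2 wells farthest from the median ZBTB33. Scaled by the positive controls alone r was 0.89, and without PIP5K2A it was 0.88. In the other kinase wells r was 0.51 (rho 0.53). The negative-control probes had an r of -0.34 with ZBTB33 in the lipid kinase wells. These points share lane and scaling factor, and the part of the ZBTB33 row in the level of the weak rows was not tested, beyond fits that took it as a covariate. In these the lipid kinase wells still had 0 of 56 rows past the adjusted threshold against the other kinase wells, with 3 at an unadjusted p under 0.05.

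**Figure D4:**
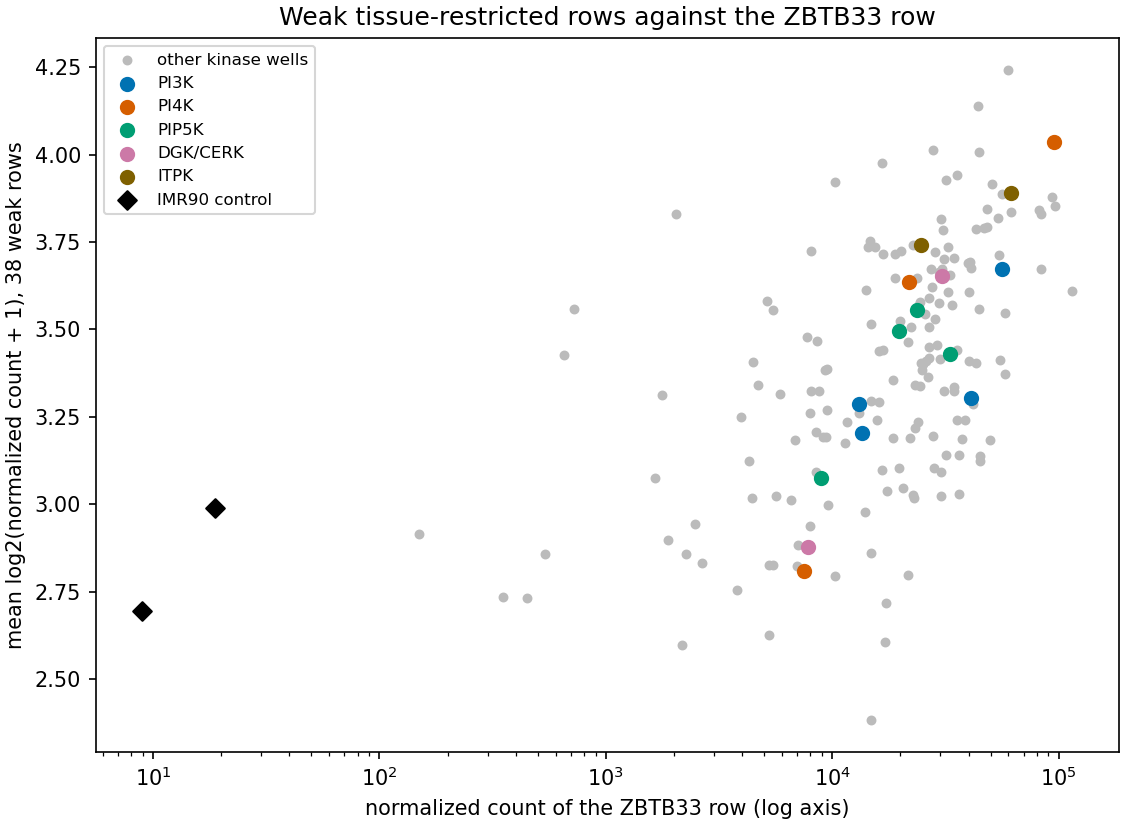
Mean log2(normalized count + 1) of the 38 weak tissue-restricted rows against the normalized count of the ZBTB33 row (log axis), with 1 point per well. The lipid kinase wells (coloured) run from PIK4CB at the lower left to PIK4CA at the upper right, and the 2 IMR90 controls (diamonds) lie at the far left, at 2.69 and 2.99.

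By class, the 4 PI3K wells had 0 of 58 rows called against the other kinase wells (0%, also 0 by DESeq2 and limma), and 0 rows had an unadjusted p under 0.05 by edgeR. The rows with the smallest p were MAGEB6 at a log2 fold change of -0.46 (SE 0.28), the potassium channel KCNA1 at 0.22 (SE 0.16) and the testis tubulin TUBA3C at -0.40 (SE 0.29), all with an adjusted p of 0.951 by edgeR. KCNA1 held 75.6 normalized counts in PIK3CB, 60.5 in PIK3CG, 65.1 in PIK3R3 and 52.4 in PIK3R5, so the wells of catalytic and regulatory subunits interleaved.

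PI3K wells were also set against 6 wells of proteins that act downstream of PI3K or beside it, namely PDPK1, AKT1, SGK, RPS6KB1, RPS6KB2 and MAPKAP1. Again 0 of 58 rows passed (0%) and 0 had an unadjusted p under 0.05. DPEP3 was at 0.65 on the log2 scale (SE 0.44), TKTL1, a transketolase-like enzyme, at 0.46 (SE 0.35) and SPATA22, a meiosis gene, at 0.42 (SE 0.30), each with an adjusted p of 0.912. The intervals of these differences reach from -0.22 to 1.52 for DPEP3, so a difference of that size could not be told from none.

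The 3 PI4K wells had more rows at low p. No row was called (0%), but 6 rows had an unadjusted p under 0.05, all higher. PIK4CA and PI4K2B lie in the same block of sample numbers, and with blocks 2 rows were under 0.05, TKTL2 higher at 0.81 (unadjusted p = 0.00986) and the helicase gene DDX53 lower at -0.74 (unadjusted p = 0.0194), with an adjusted p of 0.564 each. TKTL2, another transketolase-like gene, held 19.02 normalized counts in PIK4CA (17 counts), 10.6 in PI4K2B (10 counts) and 5.22 in PIK4CB (6 counts). These values correspond to 2.68, 1.41 and -0.03 SD from the mean of all wells. Its log2 fold change was 0.96 (SE 0.32, adjusted p = 0.207). Without PIK4CB the adjusted p was 0.024, the single row called in any alternative for this class, and only in PIK4CA was TKTL2 above the negative-control level of its lane.

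Of the more abundant rows, Tet1 held 489 normalized counts in PI4K2B, 432 in PIK4CB and 416 in PIK4CA, at a log2 fold change of 0.36 (SE 0.16, adjusted p = 0.354). MyrFlag held 887, 617 and 827 in the same order, at 0.25 (SE 0.11, adjusted p = 0.354). ALAS1 held 682, 463 and 625. With blocks of sample numbers the log2 fold changes were 0.26 for Tet1 (unadjusted p = 0.0574), 0.12 for MyrFlag (0.143) and 0.03 for ALAS1 (0.794). In MyrFlag and ALAS1 the PIK4CB well was the lowest of the 3, as it was in the weak rows and in ZBTB33, and it is the well outside the block that the other 2 share.

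The 4 PIP5K wells gave 0 called rows (0%) and 0 with an unadjusted p under 0.05. ROPN1, a protein of the sperm flagellum, held 12.4 normalized counts in PIP5K2A, 9.60 in PIP5K1A, 7.91 in PIP5K3 and 7.56 in PIP5K1B (log2 fold change -0.74, SE 0.46). SPATA22 was at -0.43 (SE 0.28) and the cancer/testis antigen XAGE1 at 0.53 (SE 0.37), each with an adjusted p of 0.998. XAGE1 held 49.6 normalized counts in PIP5K2A against 13.9 in PIP5K1B, 7.91 in PIP5K3 and 6.11 in PIP5K1A, and the PIP5K2A value is 8 counts.

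DGKG and CERK gave 0 called rows (0%) and 0 with an unadjusted p under 0.05. DPEP3 had the smallest p, at a log2 fold change of -1.07 (SE 0.56, adjusted p = 0.983), from 2 counts in DGKG and 5 in CERK. C10ORF82, a testis gene, was at -0.90 (SE 0.56) and TKTL2 at -0.69 (SE 0.51). ADAM12 held 57.2 normalized counts in DGKG and 37.6 in CERK, on either side of the median of the other wells.

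The 2 inositol phosphate kinase wells had 1 row past the threshold (1.72% of 58 rows). SSX2, a cancer/testis antigen that represses transcription, held 20.8 normalized counts in ITPK1 (17 counts) and 24.5 in ITPKB (14 counts), against 6.20 to 18.1 in the other 13 lipid kinase wells and a median of 9.58 in the other kinase wells. In ITPK1 this exceeded the negative-control level of the lane, and in ITPKB it did not. The log2 fold change was 1.15 (SE 0.31, adjusted p = 0.0180 by edgeR). The call was kept in 6 of 14 alternatives. With blocks of sample numbers the log2 fold change was 0.64 with an adjusted p of 0.992, and without either well the adjusted p was between 0.275 and 0.568. With the ZBTB33 row as a covariate it was 1.13 with an adjusted p of 0.0235.

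In all, 9 rows had an unadjusted p under 0.05 in these wells, all higher. ITPK1 and ITPKB lie in the same block of sample numbers, and with blocks SSX2 alone was under 0.05 (unadjusted p = 0.0474). The sperm surface protein ADAM2 (fertilin beta) held 37.9 normalized counts in ITPK1 and 38.4 in ITPKB and was at a log2 fold change of 0.95 (SE 0.32, adjusted p = 0.113). PLCZ1 held 48.9 and 55.9 in the same wells, both above the other 13 lipid kinase wells, and was at 0.82 (SE 0.32, adjusted p = 0.195). With blocks ADAM2 was at 0.29 (unadjusted p = 0.328) and PLCZ1 at 0.08 (unadjusted p = 0.781). The weak rows as a whole were 0.44 higher on the log2 scale than in the other kinase wells, with 31 of 38 above 0 (23 of 38 with blocks), whereas the negative-control probes differed by -0.04. B2M, the light chain of class I molecules, held 69043 in ITPK1 and 51187 in ITPKB (log2 fold change 0.43, SE 0.33, adjusted p = 0.514), and was at 0.01 with blocks.

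Single wells were also described by Z-scores, the distance of a well from the mean of all wells in SD of the log2 normalized count, with no test since each kinase has 1 lane. Of 870 pairs of a lipid kinase well and a row, 7 lay above 2.5 (0.805%) and 5 below -2.5 (0.575%), against 0.377% and 0.839% of the pairs of all kinase wells. Of the 7 high pairs, 3 were in PIP5K2A, and without that well 4 of 812 pairs remained (0.493%). Beyond 3.5 lay XAGE1 in PIP5K2A above the mean, and ADCY10 and TUBA3C in PIK3R5 below it.

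PIP5K2A had XAGE1 at a Z-score of 3.79 (8 counts, exact Poisson 95% interval 3.45 to 15.8), the piRNA pathway gene ASZ1 at 3.36 (6 counts, 2.20 to 13.1) and ADAM12 at 2.86 (17 counts, 9.90 to 27.2). These are few counts multiplied by a large factor, and all 3 were above the negative-control level of 3.01 counts of that lane. PIK3R5 had the soluble adenylyl cyclase ADCY10 at -4.48 and TUBA3C at -3.52, each from 1 count (0.0253 to 5.57), under a negative-control level of 10.7. DGKG had CTAG1B at -2.68 from 1 count and the germ cell gene RNF17 at -2.64 from 5 counts. With low counts set to the negative-control level, none of these 4 low pairs remained beyond -2.5.

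PIK4CA had the MAGE gene MAGEB18 at 2.81 (23 counts, 14.6 to 34.5), TKTL2 at 2.68 (17 counts) and the methyl-DNA-binding gene ZBTB4 at 2.56 (43 counts, 31.1 to 57.9), all above its negative-control level of 15.5 and each the highest of all kinase wells. This is also the well with 21 of 42 tissue-restricted rows above that level, more than ITPK1 (16), PIK3R5 (13), ITPKB (9) or the 3 in DGKG, PIK4CB and PIP5K1A. ITPKB had SSX2 at 2.67. PIK3CB had Tet3 at -2.63, with 1547 normalized counts where the other 14 lipid kinase wells ran from 1688 to 2237. That Z-score was -1.50 with B2M added to the housekeeping genes and -1.14 with the positive controls alone.

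**Figure D5:**
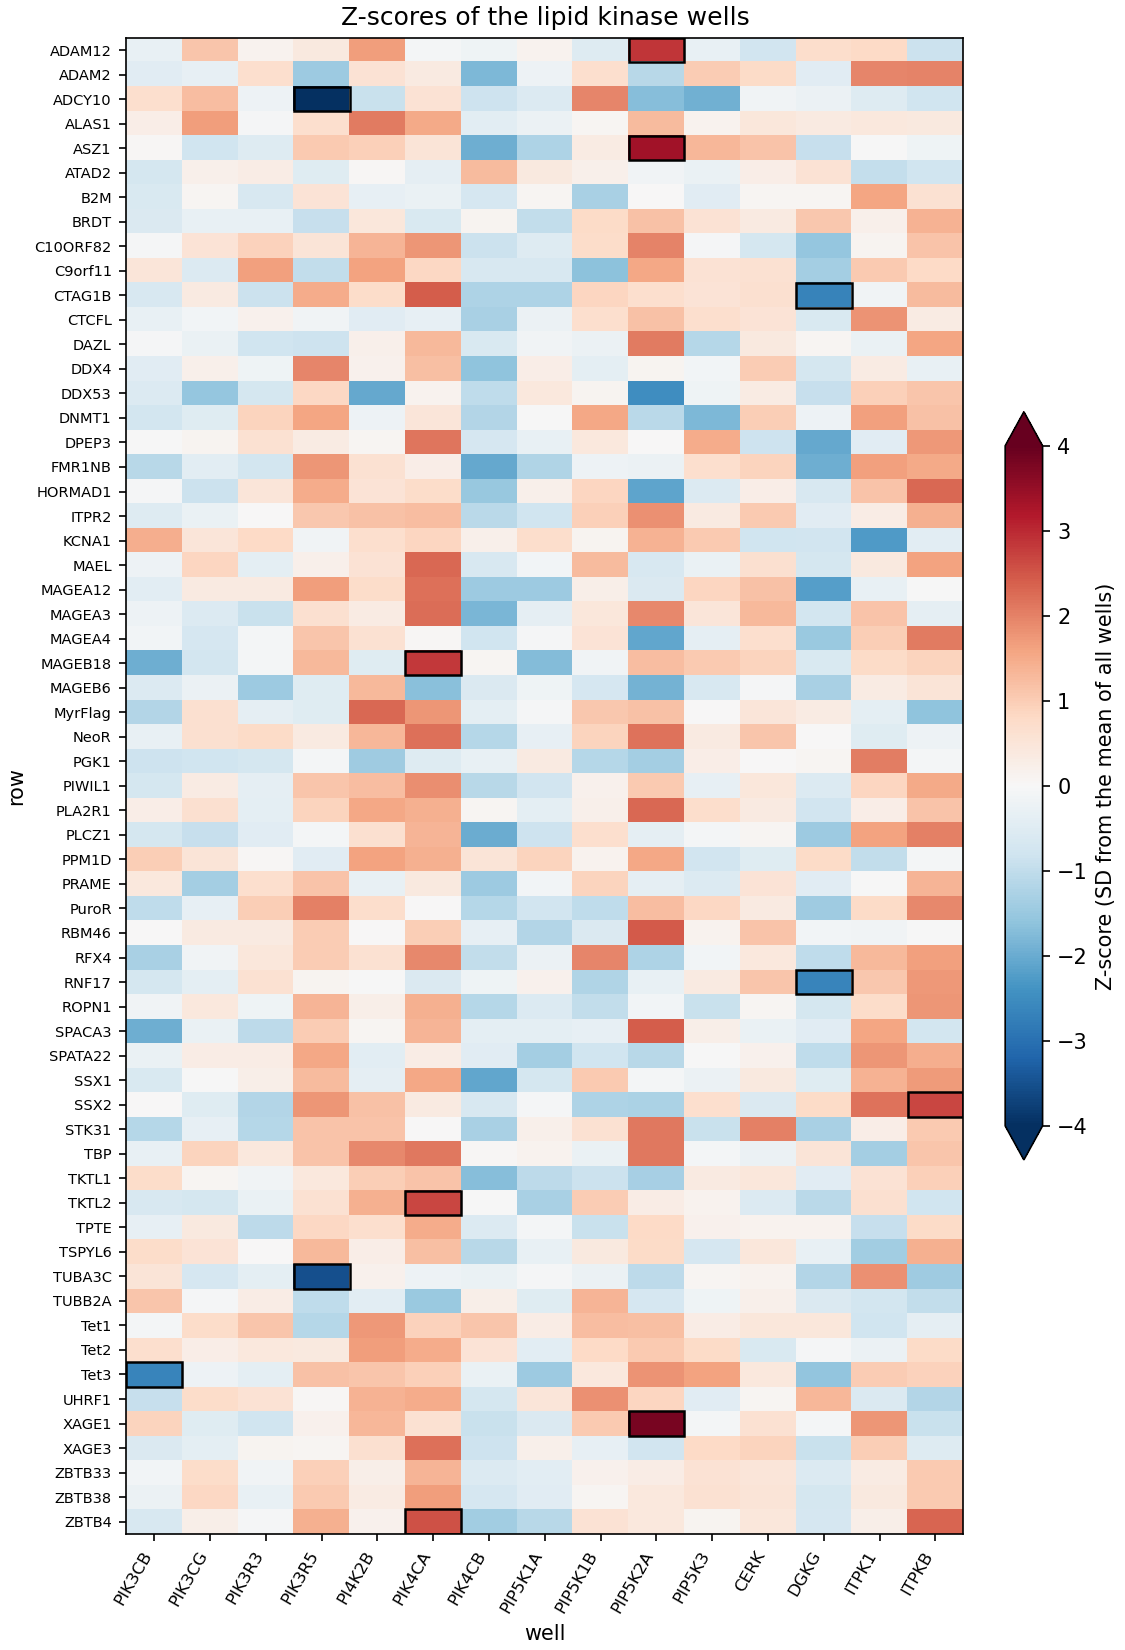
Z-scores (colour, SD from the mean of all wells) of 61 rows in the 15 lipid kinase wells, with black frames at the 12 pairs beyond 2.5 in either direction. PIK4CA and ITPKB are mostly red over the weak rows and PIK4CB and DGKG mostly blue, and the frames are spread over 6 wells.

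The root mean square Z-score was taken over the 17 rows mostly above background, which include ZBTB33 and ZBTB38. It was largest in PIP5K2A (1.45, rank 14 of all kinase wells), PI4K2B (1.34, rank 20) and PIK4CA (1.32, rank 23), and smallest in PIK3R3 (0.497). Well profiles resembled their neighbours in sample number more than their biochemical relatives. Nearest profiles, the nearest 5 of each well, were taken over the 15 rows without ZBTB33 and ZBTB38. Of these 75 profiles, 36 came from the same block of 12 sample numbers, or 48%, against 5.57% of all other kinase wells. Only 4 of the 75, or 5.33%, were other lipid kinase wells, against 7.69% of all other wells. The single nearest well was of the same block for 7 of the 15 wells. Among these, PIP5K1A was nearest to CALM2, DGKG to CKMT1A, PIK4CA to FRK and PI4K2B to GRK5. The remaining wells were nearest to a well of another block, such as PIK3CG to TK1, PIK3R3 to CLK2 and PIP5K2A to GRK5. What a block of sample numbers shares is not given in the labels, and its part in the values was not tested beyond the fits with blocks. A second lane under the name PIK3CG was left out by the name rule. Its label carries the sample number of the PLK1 well, not that of the PIK3CG well. Over 17 rows, ZBTB33 and ZBTB38 among them, it differed from the PIK3CG well by a root mean square of 0.525 on the log2 scale and from the PLK1 well by 0.221. ZBTB33 held 20378 normalized counts in this lane, 40978 in PIK3CG and 17351 in PLK1. Which sample the lane holds was not tested. Summing this second lane with the PIK3CG well left 0 rows called among the lipid kinase wells against the other kinase wells.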

How the data were processed

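Per lane, the authors deposited unnormalized counts of each probe. A further deposited table holds a signal, which was the count multiplied by a single factor per lane. That table was unscaled in 8 lanes, among them PIP5K2A, so counts were used and the table served as an alternative. Scaling by positive controls first, after the methods, cancels in the housekeeping scaling up to a constant. HK1 and the second lanes of a kinase (PIK3CG, PTK2) or control were left out.

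Counts of 58 rows were fitted in R 4.3.3 with edgeR 4.0.16 (quasi-likelihood, offset from PGK1, TBP and TUBB2A, Benjamini-Hochberg over all rows, threshold 0.05). The standard error was derived from the F statistic. Alternatives used DESeq2 1.42.0, limma 3.58.1 and permutation tests (two-sided). They covered normalization, background, row filters, blocks of 12 sample numbers, members, second lanes and each well left out. Fits without PIP5K2A in blocks and with ZBTB33 as a covariate were added after seeing the data. Z-scores and log2 values (pseudocount 1) used scipy 1.17.1, pandas 2.3.3 and numpy 2.4.6 under Python 3.11.15. Computations were tested on simulated data.

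The members and gene lists were chosen with earlier results of these data known. Genes were named by rule: rows past the threshold or else the 5 with the smallest p against other kinases and against controls, the 3 with the smallest p in each other comparison, pairs with a Z-score beyond 2.5, and ADAM12, ALAS1, ATAD2, UHRF1, TPTE, PLCZ1, MyrFlag, ZBTB33 and the housekeeping genes. Rows were named by the files, of which 55 of 61 probes were found in RefSeq (GRCh38.p14), which served for current names alone. Poisson intervals (95%) cover counting error only, and lane totals limit the precision of the weak rows.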

Additional observations from a re-analysis of the deposited data

Results flagged for a closer look

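TBP stood apart in 1 well of a class. In PIP5K2A, TBP held 520 normalized counts, whereas the other 3 PIP5K wells lay between 433 and 447. TBP is one of the genes that set the scale, and this lane had the lowest total of the 15. The gap to the nearest well was 0.831 of the whole range of the 4 wells. Chance gives about 1 such case in 20 groups, and 42 groups were examined, of which this was the 1 case.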

How the results depend on the processing

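The comparison of all lipid kinase wells with the other kinase wells, and those of the PI3K, PIP5K and DGKG and CERK wells, gave 0 called rows under every alternative run, as did PI3K against downstream wells. The PI4K count was between 0 and 1 with a well left out, and the 1 was TKTL2 without PIK4CB (log2 fold change 1.33). The ITPK count of 1 became 0 with B2M added to the housekeeping genes, positive controls only, DESeq2 with its own size factors, rows above the negative-control level, the floor at that level, both fits with blocks of sample numbers, and with either well left out (0 to 0). The count of 1 against the controls became 0 in the exact permutation test. The number of pairs above a Z-score of 2.5, 7 as reported, was 18 with a pseudocount of 10 (all 7 among them), 4 with positive controls only, 3 with the floor, 4 on the deposited table and 4 without PIP5K2A, the latter 4 counts all from the 7. The number below -2.5, 5 as reported, was 3 with a pseudocount of 10 and 1 with the floor, all from the 5. With the floor TKTL2 turned to -0.27 in the PI4K wells and to a Z-score of -0.57 in PIK4CA. The floor replaces counts under the negative-control level, and other causes were not tested. No paired analysis was possible because kinase wells carry no replicate numbers. Depth limits all rows near the negative-control level.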
